A study of Mus musculus with 6 samples.

Results

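The skeletal muscle fiber genes described here are 10 genes chosen by symbol from the 55487 genes of the count table: Acta1, Ckm, Myh4, Myh1, Tnnt3, Tnni2, Mylpf, Myl1, Atp2a1 and Mb. All 10 had 1 row each, and all 10 passed the filter on low counts. They were measured by RNA-seq in 6 subcutaneous tumors of CT26.WT, a mouse colon carcinoma line, grown in male immunocompetent BALB/c mice aged 4 weeks. The cells were implanted under the skin of the upper back, and the labels give the genotype of every tumor as WT. The 3 control tumors came from mice given 100 µL PBS into the tail vein. The 3 tumors of the IFN-γ group came from mice given 100 µL IFN-γ at 100 ng/ml by the same route every 48 h. Each library is bulk RNA of a whole tumor, so it holds CT26.WT cells together with any host tissue collected with them.

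Skeletal muscle fibers contract when myosin heads on thick filaments pull on actin thin filaments. Calcium bound by the troponin complex frees the thin filament, and a calcium pump of the sarcoplasmic reticulum ends the contraction. Fast and slow fibers use different isoforms of almost every one of these proteins, so the isoforms name the fiber type. In the mouse, a thin sheet of skeletal muscle, the panniculus carnosus, lies beneath the skin of the trunk, and larger muscles of the back lie deeper.

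Transcription of muscle genes is known to use MyoD-family factors, which bind E-boxes, together with MEF2 and serum response factor, which binds CArG boxes. The promoters of the 10 genes were searched for these motifs. RefSeq (GRCm38.p6) start sites were found for 8 of the 10 genes, with 3 starts for Mb, which made 10 windows of 250 bases upstream of a start. Both strands were searched. The palindrome CAGCTG, a form of the E-box CANNTG, was present in 8 of the 10 windows and in 13.0% of 32851 mouse promoter windows of the same length. Of the 3 windows of Mb, 2 overlap and share the match. The general E-box CANNTG, which includes CAGCTG, was in 9 windows and in 66.2% of all promoters. A MEF2 match was in 2 windows (2.92% of all promoters) and a CArG box in 2 (1.47%). These matches describe letters only, and no binding was measured. A relation of the motifs to the levels in the tumors was not tested. The sequences of 4 genes are shown 5′ to 3′. Those of Acta1, Myh4 and Myh1 hold every MEF2 and CArG match found, and that of Mylpf is an example of the windows with an E-box alone. E-box, MEF2 and CArG matches are in capitals.
Acta1, minus strand of chr8:123894776-123895025: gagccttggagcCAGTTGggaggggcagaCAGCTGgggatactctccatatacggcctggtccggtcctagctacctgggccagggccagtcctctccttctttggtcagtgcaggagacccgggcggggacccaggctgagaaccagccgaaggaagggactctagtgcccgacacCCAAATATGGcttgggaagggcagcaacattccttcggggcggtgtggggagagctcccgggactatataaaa
Myh4, plus strand of chr11:67237562-67237811: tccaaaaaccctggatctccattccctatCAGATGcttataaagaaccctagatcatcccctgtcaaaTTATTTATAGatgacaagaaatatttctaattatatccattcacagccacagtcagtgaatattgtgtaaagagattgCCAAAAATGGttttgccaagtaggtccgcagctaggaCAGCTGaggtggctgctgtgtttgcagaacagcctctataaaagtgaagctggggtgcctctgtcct
Myh1, plus strand of chr11:67199852-67200101: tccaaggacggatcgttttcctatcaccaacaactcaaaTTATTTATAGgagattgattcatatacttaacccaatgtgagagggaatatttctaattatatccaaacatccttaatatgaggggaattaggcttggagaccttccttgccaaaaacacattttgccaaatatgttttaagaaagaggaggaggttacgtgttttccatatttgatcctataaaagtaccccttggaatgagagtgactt
Mylpf, plus strand of chr7:127211358-127211607: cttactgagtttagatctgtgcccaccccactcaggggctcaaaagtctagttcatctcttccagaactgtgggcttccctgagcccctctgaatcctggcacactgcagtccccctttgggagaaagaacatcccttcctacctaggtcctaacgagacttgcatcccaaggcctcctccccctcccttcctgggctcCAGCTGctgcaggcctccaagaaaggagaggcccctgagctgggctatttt
In Acta1 the run of capitals nearest the start is the CArG box, 73 bases upstream, and the other capitals are E-boxes. Myh4 held all 3 kinds of match, with the MEF2 match beginning 182 bases, the CArG box 104 bases and CAGCTG 67 bases upstream. In Myh1 the only capitals are a MEF2 match 211 bases upstream, and in Mylpf they are CAGCTG 51 bases upstream.

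The actin of the thin filament was the most abundant member. Acta1 (ENSMUSG00000031972), which encodes skeletal α-actin, stood at 54.1, 82.3 and 347 CPM in control tumors 1, 2 and 3. In IFN-γ tumors 1, 2 and 3 it stood at 137, 154 and 64.0 CPM, where CPM is the count relative to the TMM-scaled size of the library. Tumors are given in this order throughout. Control tumor 3 was the highest of the 6, control tumor 1 the lowest, and the groups overlapped. Control tumors averaged 161 ± 162 CPM and IFN-γ tumors 118 ± 47.9 CPM (SD, n = 3 each). The log2 fold change, IFN-γ minus control, was -0.45 with a standard error of 0.64 and a 95% interval from -1.91 to 1.01 (adjusted p = 0.864, edgeR's quasi-likelihood test).

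The myosin motors of the fast thick filament showed the same spread. Myh4 (ENSMUSG00000057003), the heavy chain of type IIb fibers, stood at 25.5, 54.3 and 197 CPM in the control tumors and at 64.5, 122 and 26.3 CPM in the IFN-γ tumors. Myh1 (ENSMUSG00000056328), the heavy chain of type IIx fibers, stood at 11.0, 20.1 and 49.1 CPM in the control tumors and at 36.7, 23.4 and 13.1 CPM in the IFN-γ tumors. Both genes were highest in control tumor 3 and lowest in control tumor 1, but the order of IFN-γ tumors 1 and 2 was exchanged between them. The log2 fold changes were -0.38 for Myh4 (95% interval -2.05 to 1.28) and -0.13 for Myh1 (95% interval -1.34 to 1.07). Mylpf, the fast regulatory light chain, ran from 18.6 CPM in control tumor 1 to 94.5 CPM in control tumor 3, and from 21.0 CPM in IFN-γ tumor 3 to 48.9 CPM in IFN-γ tumor 2. Myl1, the fast essential light chain, ran from 10.8 to 68.0 CPM over the same control tumors and from 16.4 to 35.8 CPM over the same IFN-γ tumors. Both light chains thus spanned a wider range in the control group than in the IFN-γ group.

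The calcium switch of the fast fiber followed. Tnnt3, the fast troponin T that anchors the complex to tropomyosin, stood at 8.57, 17.6 and 72.7 CPM in the control tumors and at 26.6, 39.2 and 11.8 CPM in the IFN-γ tumors. Tnni2, the fast inhibitory troponin, varied less, with 12.4, 13.9 and 36.9 CPM in the control tumors and 17.0, 19.6 and 10.6 CPM in the IFN-γ tumors. Tnni2 had the narrowest interval of the 10 genes, from -1.37 to 0.52 around a log2 fold change of -0.42. Atp2a1, the fast sarcoplasmic reticulum calcium pump, stood at 14.8, 30.3 and 122 CPM in the control tumors and at 37.8, 75.3 and 14.0 CPM in the IFN-γ tumors. Atp2a1 had the largest ratio of highest to lowest tumor among the 10 genes, 8.72, and Tnni2 the smallest, 3.49.

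Ckm and Mb serve energy and oxygen supply. Ckm, the muscle creatine kinase that regenerates ATP, stood at 13.9, 21.3 and 101 CPM in the control tumors and at 38.3, 67.7 and 16.7 CPM in the IFN-γ tumors. Mb, the oxygen store myoglobin, is most abundant in oxidative fibers and was the least abundant member, at 0.938, 1.41 and 3.77 CPM in the control tumors and 2.09, 2.02 and 0.495 CPM in the IFN-γ tumors. Its counts ran from 8 to 66, so Mb carries the largest counting error of the 10. Per kilobase of exon, the mean over the 6 tumors was 91.0 CPM for Acta1, 39.5 for Mylpf, 18.6 for Tnnt3 and 14.8 for Ckm. On the same scale, Myl1, Atp2a1, Myh4 and Tnni2 lay between 12.3 and 14.3, Myh1 stood at 4.03 and Mb at 1.20. The SD over the 6 tumors was 71.2 for Acta1, 15.1 for Tnnt3 and 6.43 for Tnni2. The genes rose and fell together over the tumors, so this SD does not measure how firm the order is. Within each tumor, for example, Tnnt3 stood above Ckm, at 5.41 against 4.76 in control tumor 1 and 24.8 against 23.3 in IFN-γ tumor 2. Differences between neighbors in this order were not tested.

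**Figure D1:**
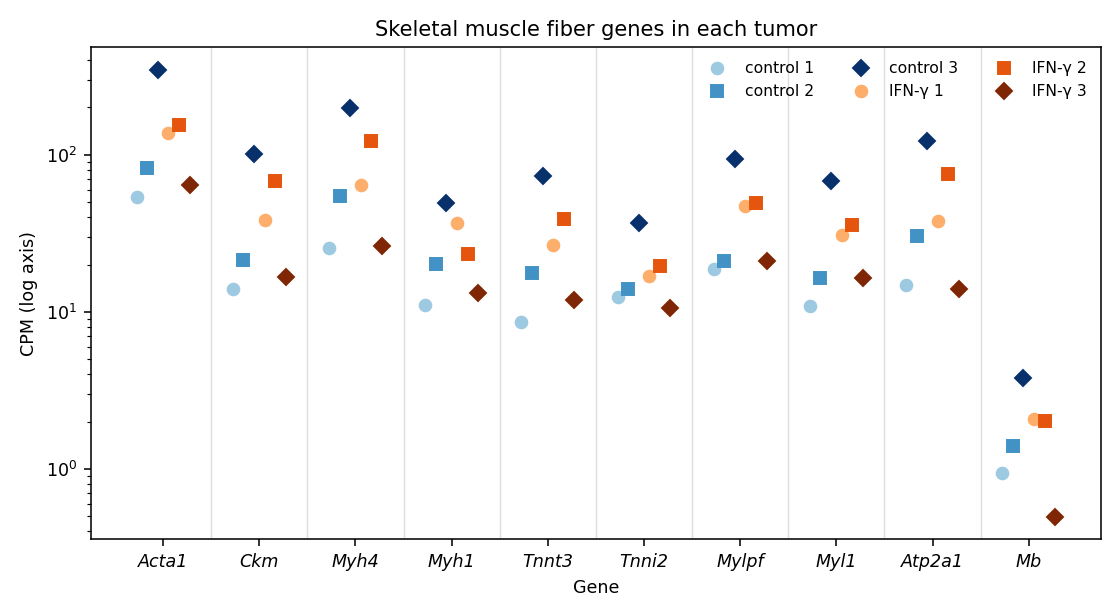
CPM (log axis) of the 10 skeletal muscle fiber genes, 1 point for each of the 3 control tumors (blue) and 3 IFN-γ tumors (orange to brown). Control tumor 3 was the highest point for all 10 genes, with Acta1 at 347 CPM there, and the groups overlapped for every gene.

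For none of the 10 genes was the difference between the groups larger than the spread between tumors. With edgeR's quasi-likelihood test, 0 of the 10 passed the adjusted threshold in either direction, and 0 had an unadjusted p under 0.05, as 10.2% of all genes tested did. DESeq2 and limma-voom also called 0 of the 10, against 1.3% and 0.086% of all genes. Over all 15114 genes tested, 0.112% were called, 0.0794% as higher and 0.0331% as lower. The groups overlapped for all 10 genes, while they did not overlap for 15.1% of the genes tested. All 10 fitted log2 fold changes were below 0, with a median of -0.37, against 0.0015 over all genes tested. This shared sign was not stable. Without control tumor 3, all 10 were above 0, with a median of 0.86, and 2 of them, Mylpf and Myl1, had an unadjusted p under 0.05. Their log2 fold changes were then 0.96 (95% interval 0.17 to 1.76) and 1.01 (95% interval 0.21 to 1.81). Neither passed after adjustment (adjusted p = 0.397 and 0.381, edgeR). That fit leaves out the tumor that was highest for all 10 genes. Its share of all genes with an unadjusted p under 0.05 was not counted, so these 2 genes have no background beside them. The limma-voom fit of all 6 tumors placed 5 of the 10 above 0.

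**Figure D2:**
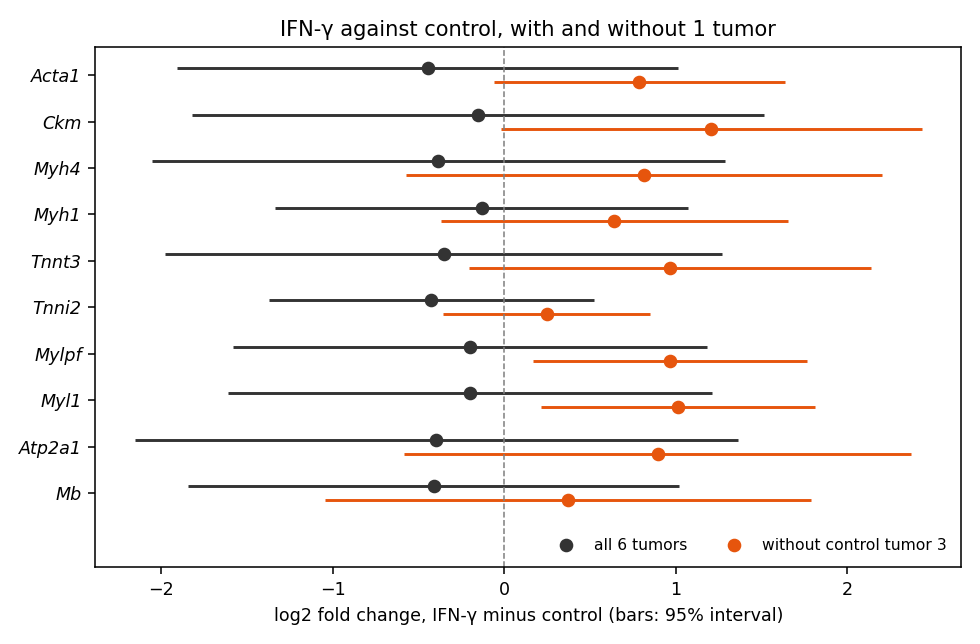
Log2 fold change, IFN-γ minus control, of each gene from edgeR with all 6 tumors (black) and without control tumor 3 (orange), with 95% intervals as lines. The estimates of all 10 genes lay below 0 with all tumors and above 0 without control tumor 3, and every interval with all 6 tumors included 0.

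The spread among tumors of the same group was wider for these genes than for most genes tested. The 10 genes were chosen with earlier results of these data known and their uneven spread in view. The values below therefore describe the chosen genes and are no test. The within-group SD of log2 CPM had a median of 1.09 over the 10 genes and 0.163 over all genes tested. The biological coefficient of variation, edgeR's estimate of the relative variation between replicate tumors beyond counting noise, was between 0.352 for Tnni2 and 0.631 for Atp2a1, with a median of 0.521. Over all genes tested the median was 0.126. By this coefficient, 9 of the 10 genes stood between the 98.1 and 99.7 percentiles of the genes tested, with Tnni2 lower. The 10 genes together took 171, 279 and 1093 CPM in control tumors 1, 2 and 3, while IFN-γ tumors 1, 2 and 3 had 438, 588 and 194 CPM. In shares of all counts this was 0.0173% in control tumor 1 and 0.109% in control tumor 3. Control tumor 3 exceeded the mean of control tumors 1 and 2 by between 2.80 times for Tnni2 and 5.75 times for Ckm. In bulk tumors, fewer or more muscle fibers and less or more RNA per fiber cannot be told apart.

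**Figure D3:**
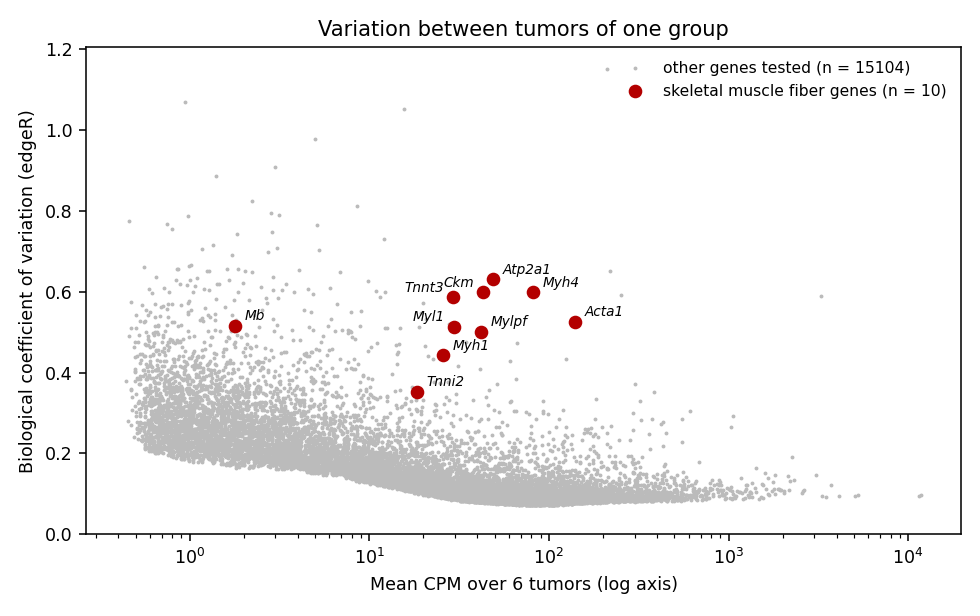
Biological coefficient of variation from edgeR against mean CPM over the 6 tumors (log axis) for all genes tested (gray) and the 10 skeletal muscle fiber genes (red, named). The 10 genes lay between 0.352 and 0.631, above most genes of like mean CPM.

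The 10 genes ranked the tumors in nearly the same order. Control tumor 3 was the highest for 10 of 10 genes, whereas it was the highest for 14.3% of all genes tested. IFN-γ tumor 2 came next for 8 genes, and IFN-γ tumor 1 for Myh1 and Mb. Control tumor 2 was in the 4th place for 10 of 10. The lowest tumor was control tumor 1 for 7 genes and IFN-γ tumor 3 for Tnni2, Atp2a1 and Mb. Thus each group held tumors at both ends of the range. The proportions among the 10 genes moved far less than their levels. As a share of the counts of all 10 genes, a gene's highest tumor exceeded its lowest by a median of 1.52 times, against 6.85 times for CPM. The share of Acta1 stayed between 26.2% and 32.9% in the 6 tumors, while its CPM differed 6.43 times. The shares of Myh1, Tnni2 and Mb moved most, by 2.11, 2.19 and 2.16 times.

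The myosin heavy chains give the fiber types. Myh4 (IIb), Myh1 (IIx) and Myh2 (IIa) together had between 675 counts in control tumor 1 and 4827 in control tumor 3. Myh7, the slow heavy chain, had 0 or 1 counts in every tumor and 3 counts over all 6, against 12475 counts of the fast chains. The developmental heavy chains Myh3 and Myh8, which mark embryonic, neonatal and regenerating fibers, had 59 and 100 counts over all 6 tumors. Among the 3 fast chains, the share of Myh4 was 60.4%, 64.5% and 71.6% in control tumors 1, 2 and 3, while IFN-γ tumors 1, 2 and 3 had 53.1%, 76.2% and 55.5%. The exact binomial 95% interval was 70.3% to 72.9% in control tumor 3, 74.6% to 77.9% in IFN-γ tumor 2 and 50.9% to 55.2% in IFN-γ tumor 1, so these tumors differed by more than counting error. The share of Myh1 was lowest in IFN-γ tumor 2 (14.6%) and control tumor 3 (17.8%), the tumors with the highest Myh4, and highest in IFN-γ tumor 1 (30.2%). No difference between the groups was detected, with a mean share of Myh4 of 65.5 ± 5.64% in the control group against 61.6 ± 12.7% for IFN-γ tumors (SD, n = 3 each; two-sided exact permutation test, p = 0.6, or 0.7 adjusted over the 3 chains). The p of Myh1 was 0.7 and that of Myh2 was 0.4 in the same exact permutation test (n = 3 each, both 0.7 after adjustment), and with 3 tumors a group this test cannot go below 0.1. Myh4, Myh1 and Myh2 are near neighbors on chromosome 11. In GENCODE M21 transcripts, 18.9% of the 50-base words of Myh4 and 25.4% of those of Myh1 also occur in another gene, so the counting may have split or dropped some of their reads.

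**Figure D4:**
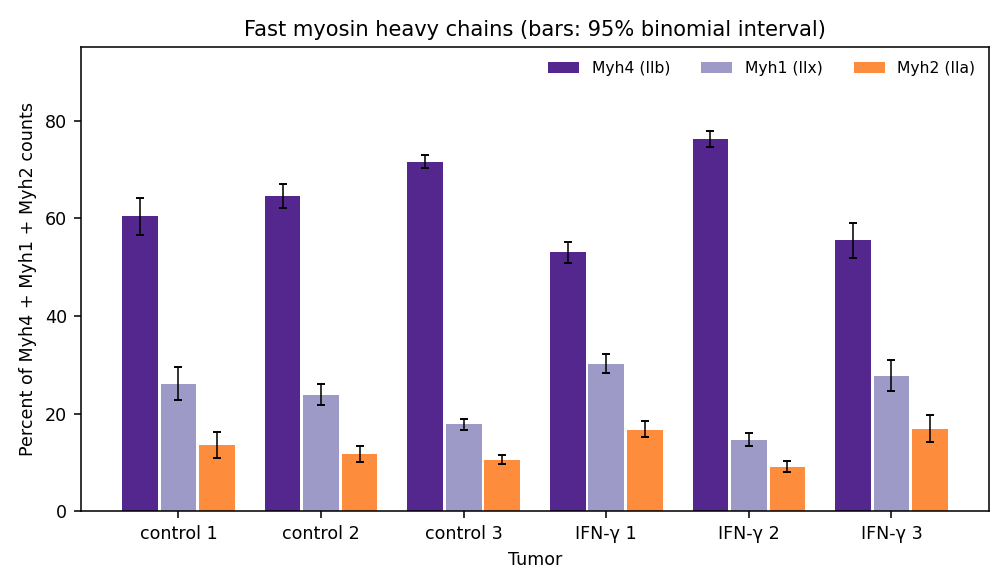
Share (percent) of Myh4, Myh1 and Myh2 among their summed counts in each tumor, with exact binomial 95% intervals, which cover counting error only. Myh4 took from 53.1% in IFN-γ tumor 1 to 76.2% in IFN-γ tumor 2, and the groups overlapped for all 3 genes.

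A wider list of 105 further muscle genes was examined by role. Of these, 83 were tested and 0 passed the adjusted threshold in either direction with edgeR. At an unadjusted p under 0.05 there were 5 of the 83, against 10.2% of all genes tested. Limma-voom called 0, and DESeq2 called 1 of the 83, Chrna1, a subunit of the acetylcholine receptor, which it placed lower. Of all genes tested, DESeq2 called 1.3% in either direction and 0.47% as lower, so a single call in a list of this size is near its background. Chrna1 fell outside the pattern of the fiber genes, at 17.3, 11.4 and 10.3 CPM in the control tumors and 4.01, 5.99 and 8.72 CPM in the IFN-γ tumors (log2 fold change -1.06, adjusted p = 0.315, edgeR). Its groups did not overlap, as was so for 3 of the 83 genes and for 15.1% of all genes tested. The median log2 fold change of the 83 genes was -0.24 with all tumors and 0.48 without control tumor 3.

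Most genes of the fast sarcomere list, which leaves out the 10, and of the calcium handling list shared the spread of the 10. Tpm1 and Srl, given below, varied less. Control tumor 3 was the highest for 24 of the 26 fast sarcomere genes tested. It was so for 19 of the 19 genes of calcium handling tested, against the 14.3% of all genes given above. Tnnc2, the calcium-binding fast troponin C, was at 8.19, 9.98 and 47.8 CPM in the control tumors and at 17.9, 24.9 and 8.29 CPM in the IFN-γ tumors. In the annotation, 74.0% of its exon bases overlap Ube2c on the other strand, so reads of these genes may be mixed. Pvalb, the calcium buffer of fast fibers, was at 4.38, 5.47 and 26.8 CPM in the control tumors and at 10.7, 21.5 and 4.82 CPM in the IFN-γ tumors. Ttn, the giant spring protein of the sarcomere, was highest in control tumor 3 (67.2 CPM) and lowest in IFN-γ tumor 3 (8.41 CPM). Tpm2, a tropomyosin of muscle, had 63.4 CPM in control tumor 3 and between 23.6 and 36.2 CPM elsewhere. Tpm1, a tropomyosin that cells other than muscle also make, was nearly even at 254 to 324 CPM in the 6 tumors. Srl, a calcium-binding protein of the sarcoplasmic reticulum, ran only from 9.83 CPM in IFN-γ tumor 3 to 21.4 CPM in control tumor 3.

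Most of the counts of the slow sarcomere list came from isoforms that other cells also use. Atp2a2, the calcium pump of slow fibers that most other cells also make, stayed between 452 and 521 CPM, and Tpm3, a tropomyosin of the same kind, between 130 and 149 CPM. Tnni1, the slow inhibitory troponin, stood between 0.489 and 2.17 CPM, and Myoz2, a Z-disc protein of slow fibers, between 1.63 and 3.66 CPM. Control tumor 3 was the highest for 2 of the 6 slow genes tested, Tnni1 and Tnnt1 (the slow troponin T, 0.489 to 1.83 CPM), against 14.3% of all genes. Myl2, the slow regulatory light chain, was too low to be tested and had 13 counts in control tumor 3 and between 1 and 6 in the others. Among the enzymes and other metabolic genes it was the highest for 9 of 18. Eno3, the muscle enolase, was at 123 CPM there and between 83.7 and 105 CPM in the other tumors. Pfkm, the muscle phosphofructokinase, lay between 63.3 and 82.8 CPM, and Ak1, an adenylate kinase, between 45.1 and 60.6 CPM. Car3, a carbonic anhydrase made by slow muscle and also by fat cells, was at 18.4, 19.3 and 61.4 CPM in the control tumors and at 55.5, 92.0 and 62.3 CPM in the IFN-γ tumors (log2 fold change 1.08, adjusted p = 0.456, edgeR).

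Transcripts of muscle stem cells and myoblasts were close to the limit of the depth. A count of 0 allows up to 0.169 to 0.188 CPM in these libraries (3 counts, counting error only). Pax7, the satellite cell factor, had between 0 and 3 counts in a tumor, Myf5 between 0 and 1, Myod1 between 0 and 8, Myog between 1 and 13 and Myf6 between 0 and 16. For Myod1, Myog, Myf6 and Pax7 the highest count was in control tumor 3, while Myf5 was counted only in IFN-γ tumor 2. Over the whole list of 16 myogenic genes, control tumor 3 was the highest in CPM for 8. Among all genes with counts it was so for 3802 of 26868. Of the 4 myogenic genes tested, it was the highest for 1, against 14.3% of all genes tested. Des, the intermediate filament desmin of fibers and smooth muscle, was abundant and at 83.7 CPM in control tumor 3, against 15.4 and 27.3 CPM in the other controls and between 14.8 and 37.3 CPM in the IFN-γ group. Mef2c, a factor that leukocytes and vessels also use, lay between 19.8 and 28.5 CPM and Pax3 between 2.96 and 4.46 CPM. Control tumor 3 was the highest for 4 of the 5 developmental sarcomere genes tested, against 14.3% of all genes. Among them, Tnnt2 lay between 7.61 and 10.9 CPM and Myl4 between 2.44 and 4.12 CPM. Myh8 had 9, 17 and 28 counts in control tumors and 24, 12 and 10 after IFN-γ. Ncam1, an adhesion molecule of myoblasts and nerve cells, stood at 1.81, 2.48 and 3.14 CPM in control tumors and 1.68, 0.916 and 1.11 CPM after IFN-γ (log2 fold change -1.0, adjusted p = 0.389, edgeR). Its groups did not overlap, as was so for 15.1% of all genes tested. Among genes of muscle atrophy, Fbxo32, an ubiquitin ligase, had between 1.48 and 4.95 CPM and Trim54 between 3.79 and 7.36 CPM. Asb2 lay between 2.19 and 4.70 CPM and Asb5 between 0.688 and 3.49 CPM. Of the 5 tested, 0 passed the adjusted threshold with edgeR and 0 had an unadjusted p under 0.05, against 10.2% of all genes tested.

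The genes most like the 10 in their profile over the 6 tumors were found by the root mean square difference of log2 CPM, each gene centered on its own mean. In order, they were Tnnc2, Cacna1s, Casq1, Mybpc2, Mybpc1, Usp13, Ryr1, Eef1a2, Myom2 and Lmcd1, with differences from 0.140 for Tnnc2 to 0.227 for Lmcd1. Acta1 itself differed from the mean profile of the 10 by 0.107 and Tnni2 by 0.364. Both are part of that mean, so their values are not directly comparable with those of other genes. Of the 10 nearest genes, 7 were in the wider muscle list, as were 27 of the nearest 50. That list held 83 of all 15114 genes tested. Cacna1s is the voltage sensor and Ryr1 the calcium release channel of skeletal muscle, and Casq1 is a calcium store protein of the sarcoplasmic reticulum. Mybpc1 and Mybpc2 are the slow-type and fast-type myosin-binding proteins C, and Myom2 holds the thick filaments at the M-band. Usp13, a deubiquitinase, had 10, 13 and 58 counts in the control tumors and 27, 24 and 9 in the IFN-γ tumors. Eef1a2, the translation elongation factor isoform of muscle and neurons, had 16, 41 and 169 counts in the control tumors and 62, 76 and 29 in the IFN-γ tumors. Lmcd1, a LIM domain protein, had 17, 31 and 96, and then 41, 36 and 17. Likeness over 6 tumors is a description and carries no test.

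Marker lists of other tissues that could be collected with a tumor are given beside these values. For heart muscle, Myl7 had 0 counts in every tumor, and Myh6 had 0 in all 3 IFN-γ tumors and 6 in control tumor 3. Tnni3 had between 10 and 23 counts and Mybpc3 between 3 and 8. Nppb, a natriuretic peptide that made up most of the heart list, stood at 68.1 CPM in control tumor 1 and 71.8 CPM in IFN-γ tumor 3, where the muscle genes were low, and at 26.3 CPM in control tumor 3. Smooth muscle and pericyte genes summed to between 192 and 232 CPM in the control group and between 140 and 190 CPM in the IFN-γ group, with control tumor 3 highest for 2 of the 8 tested. Of the 8 fat cell genes, 0 were highest in control tumor 3. They summed to between 103 and 145 CPM in the control group and between 145 and 203 CPM in the IFN-γ group. Their median log2 fold change was 2.23, which counts each gene alike, whereas the sum is weighted to the most abundant genes. With edgeR, 0 of the 8 passed the adjusted threshold and 7 had an unadjusted p under 0.05, against 10.2% of all genes tested. The 11 epidermal genes summed to between 7.84 and 16.1 CPM in 5 tumors and to 79.0 CPM in IFN-γ tumor 3, where the muscle genes were low. The 7 tendon genes summed to 27.6 CPM in control tumor 2, to 24.6 CPM in control tumor 3 and to between 10.9 and 15.3 CPM in the others. The 8 nerve genes stayed between 47.7 and 63.3 CPM, with Pmp2 at 0 counts in every tumor, and the 4 genes of brown fat between 2.11 and 3.85 CPM, with Ucp1 at 0. The 5 red blood cell genes ran from 10.8 to 29.7 CPM in the control group and from 14.5 to 57.2 CPM in the IFN-γ group. Fibroblast genes summed to 4055, 3359 and 5258 CPM in control tumors and 4913, 5279 and 3371 CPM after IFN-γ, and leukocyte genes to 648, 789 and 721 and to 1032, 1048 and 607 CPM. Endothelial genes lay between 173 and 273 CPM and epithelial genes of the carcinoma between 418 and 625 CPM. The part of these tissues in the muscle values was not tested.

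**Figure D5:**
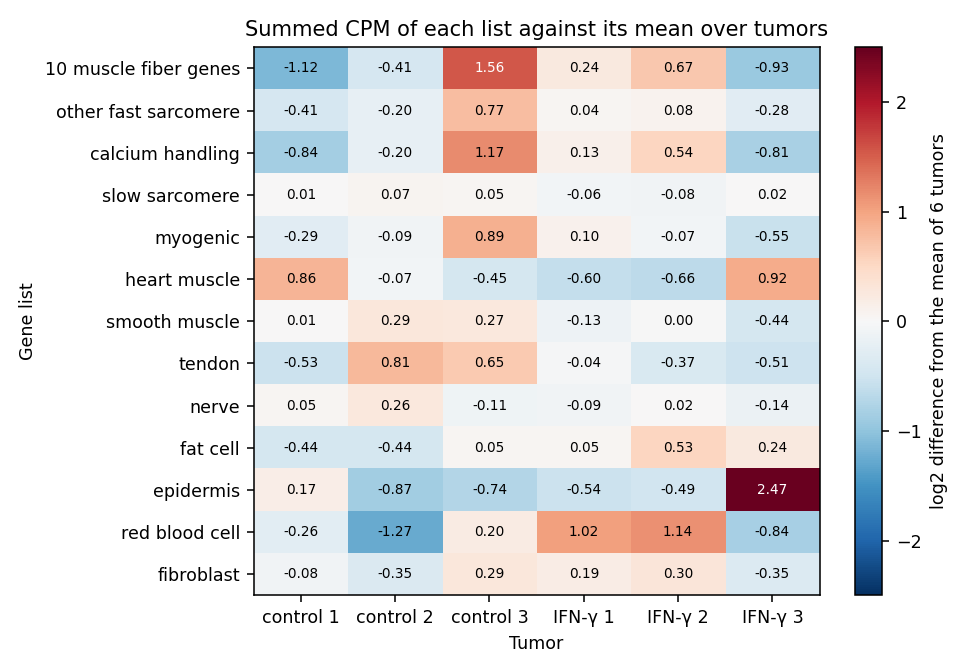
Log2 of the summed CPM of each gene list in each tumor, minus the mean of that list over the 6 tumors (color and number, blue below and red above). The 10 muscle fiber genes ran from -1.12 in control tumor 1 to 1.56 in control tumor 3, the calcium handling list from -0.84 to 1.17, and the slow sarcomere list, whose sum is mostly Atp2a2 and Tpm3, stayed within -0.08 and 0.07.

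The libraries were alike in depth, between 15759300 and 17559680 counts per tumor, with control tumor 3 the deepest. IFN-γ response genes were above the control group in the fit for 10 of 10 genes, as were 7623 of all 15114 genes tested. Their median log2 fold change was 0.65. In edgeR 0 of them passed the adjusted threshold, and 6 had an unadjusted p under 0.05, against 10.2% of all genes tested. The summed level of the 10 response genes was 897, 1568 and 1239 CPM in control tumors 1, 2 and 3. In IFN-γ tumors 1, 2 and 3 it was 2578, 2708 and 1215 CPM. The lowest tumor of each group, control tumor 1 and IFN-γ tumor 3, was also the one with the least muscle RNA in its group. Control tumor 3, with the most muscle RNA, was not the highest of its group. A relation between these levels was not tested. The tumors are the replicates, and the edgeR p-values weigh the difference between the groups against the spread between tumors of one group. The annotation places 15.5% of the exon bases of Ckm, 21.9% of those of Atp2a1 and 27.6% of those of Mb under a gene on the other strand, and 11.7% of the 50-base words of Myl1 occur in the pseudogene Mylf-ps. Strandedness of the counts is not given in the sources used here, so the levels of these genes may include reads of their partners.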

How the data were processed

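Bulk RNA-seq of 6 tumors, 3 per group, was analysed, with groups taken from GEO's labels. The table the authors deposited holds raw counts for each gene, not normalized. The submitters' processing notes name HISAT2 and mm10. The counting program, annotation and strandedness are not given in the sources used here.

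CPM used TMM factors. All 15114 genes that passed filterByExpr entered edgeR 4.0.16 in R 4.3.3 (quasi-likelihood F-test, adjusted by Benjamini-Hochberg, threshold 0.05). Standard errors were taken as the absolute log2 fold change over the root of F, and 95% intervals used the moderated degrees of freedom. Log2 CPM used a prior count of 2. DESeq2 1.42.0, limma 3.58.1 (voom), other scalings and filters, a replicate block and fits without each tumor were the alternatives. Permutation tests and binomial intervals used SciPy 1.17.1. Of the table's identifiers, 99.4% were in GENCODE M21 (GRCm38, the same assembly as mm10), which gave exon lengths and overlaps.

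The genes named were the 10 members, the 4 most abundant genes of each muscle list and of the heart list, the myogenic factors and the 10 genes of most like profile. Myh2, Myh3, Myh7, Myl2 and Tnnt1 fall outside this rule and were picked with their values in view. Of the genes the rule takes, 1 is not reported here. The members and lists were chosen with earlier results of these data known. The shares of fast myosins, the motifs and the counts of genes highest in a given tumor were chosen after the values were seen. The fits were tested on simulated counts of 15114 genes, of which 200 were changed 2-fold. Recovery was 67% with 8 false calls for edgeR, 67% with 7 for limma-voom and 74.5% with 35 for DESeq2.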

Additional observations from a re-analysis of the deposited data

How the results depend on the processing

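Of the 10 skeletal muscle fiber genes, 0 passed the adjusted threshold under any alternative, in either direction. The sign of their fold change depended on control tumor 3. Leaving out each tumor in turn, the median log2 fold change ran from -0.72 to 0.86, against -0.37 with all 6, and the highest value came without control tumor 3. By gene, the log2 fold changes of these fits ran from -0.86 to 0.79 for Acta1, from -0.73 to 1.21 for Ckm, from -1.03 to 0.81 for Myh4, from -0.55 to 0.64 for Myh1, from -0.80 to 0.97 for Tnnt3, from -0.69 to 0.25 for Tnni2, from -0.56 to 0.96 for Mylpf, from -0.61 to 1.01 for Myl1, from -1.10 to 0.90 for Atp2a1 and from -0.75 to 0.37 for Mb. The highest value of each of the 10 came without control tumor 3. Without IFN-γ tumor 3, 6 of the 10 were above 0. With limma-voom the sign was reversed to 0.16 for Ckm, 0.0073 for Myh1, 0.029 for Tnnt3, 0.12 for Mylpf and 0.18 for Myl1. Both groups use replicate numbers 1 to 3, but deviations of equally numbered tumors from their group means correlated at -0.21, -0.014 and -0.21. With 3 tumors a group, these correlations cannot show whether equal numbers shared handling or a batch. The main fit did not pair the tumors by number. With the replicate block, the sign was reversed to 0.043 for Acta1, 0.32 for Ckm, 0.031 for Myh4, 0.024 for Myh1, 0.15 for Tnnt3, 0.20 for Mylpf, 0.24 for Myl1 and 0.039 for Atp2a1. The cause was not tested. Of the fits without 1 tumor, 44 of the values for single genes kept their sign and 16 did not, and under the other settings 56 did and 13 did not. Library size only, upper-quartile factors, DESeq2 and both other filters kept the sign of the members they tested, and Mb was dropped by the filter of at least 10 counts in every tumor. In the wider muscle list, 1 gene, Chrna1, was called lower with DESeq2, when no filter was applied and without IFN-γ tumor 3, and the fits that each left out 1 tumor gave from 0 to 1. These 3 settings also called more of all genes tested, 1.3%, 0.819% and 3.18%, against 0.112%. Depth limits mainly Mb and the myogenic factors.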
